A study of Mus musculus with 12 samples.

Results

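A set of CC chemokine and CC chemokine receptor genes, Ccl2, Ccl6, Ccl7, Ccl8, Ccl9, Ccl12, Ccl20, Ccr1 and Ccr2, was followed in whole mouse corneas injured with the preservative benzalkonium chloride (BAK). They were taken by gene symbol, 9 of the 19702 genes in the deposited table, with earlier results of these data known. The 12 RNA-seq libraries formed 4 groups of 3, and each library pooled 6 corneas of 3 mice, so a replicate is a pool and not an animal. UCPRP and UCS corneas were injured with BAK and given 1 of the biologics that the series title calls cord blood-derived, Vehicle corneas were injured with BAK and are labelled as untreated, and Control corneas had neither injury nor treatment. BAK was given at 5 µl of 0.2% to each eye every day for 14 days, and UCPRP or UCS at 5 µl of 20% 3 times a day for 10 days. The sources used here do not give the meaning of the abbreviations, the strain, sex and age of the mice, the order of injury and treatment, any drops given to Vehicle eyes or the time of harvest.

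Chemokines are small secreted proteins that bind heptahelical G protein-coupled receptors and direct the migration of leukocytes along their gradients. In mice CCR2 brings monocytes out of bone marrow and into inflamed tissue in response to CCL2, CCL7 and CCL12, while CCR1 is carried by monocytes, macrophages and neutrophils and answers CCL6, CCL9 and several other ligands. Mouse CCL8 has been described as a ligand of CCR8, and CCL20 is the ligand of CCR6, so those members reach past the pair of receptors followed here. In the cornea, a normally avascular tissue, epithelial cells and keratocytes make such chemokines after injury, and resident and recruited myeloid cells both make and sense them.

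Most of the members are neighbours in the genome. In RefSeq's annotation of GRCm38.p6, Ccl2 (chromosome 11, 82035577 to 82037452), Ccl7 (82045712 to 82047525), Ccl12 (82101845 to 82103399) and Ccl8 (82115185 to 82116799) lie on the plus strand within 81.2 kb, with Ccl11 between Ccl7 and Ccl12. Ccl9 (chromosome 11, 83572917 to 83578636) and Ccl6 (83587886 to 83593087) lie on the minus strand within 20.2 kb, and the whole chromosome 11 group spans 1.56 Mb. Ccr1 (chromosome 9, 123962126 to 123968692, minus strand) and Ccr2 (124101918 to 124109140, plus strand) lie within 147.0 kb, and Ccl20 is alone on chromosome 1 (83116766 to 83119167, plus strand). All 9 are protein-coding genes. Of the 50-base windows of their GENCODE M21 transcripts, 1.97% in Ccl9 and 1.91% in Ccr2 also occur in other genes, and no window of the other 7 members does.

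RefSeq's promoter table held 7 of the 9 members, all except Ccl2 and Ccl7. The 250 bases before the annotated start are shown for 4 ligands that hold a searched motif: Ccl8 and Ccl12, which are neighbours, Ccl9, which holds the most matches, and Ccl20, the member whose mean was highest in Control. All are written 5′ to 3′ on the gene's strand in GRCm38.p6, with motif matches in capitals. The windows are chr11:82114935-82115184 for Ccl8, chr11:82101595-82101844 for Ccl12, chr11:83578637-83578886 (minus strand) for Ccl9 and chr1:83116516-83116765 for Ccl20.
Ccl8: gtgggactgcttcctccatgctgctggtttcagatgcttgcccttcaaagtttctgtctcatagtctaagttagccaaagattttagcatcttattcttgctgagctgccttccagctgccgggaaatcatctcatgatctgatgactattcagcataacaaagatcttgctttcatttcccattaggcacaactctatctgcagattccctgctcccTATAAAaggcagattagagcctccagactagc
Ccl12: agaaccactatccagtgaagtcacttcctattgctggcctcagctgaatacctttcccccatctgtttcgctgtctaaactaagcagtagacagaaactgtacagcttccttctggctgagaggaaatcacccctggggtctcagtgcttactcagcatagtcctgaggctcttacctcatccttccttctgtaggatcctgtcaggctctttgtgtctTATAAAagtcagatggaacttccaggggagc
Ccl9: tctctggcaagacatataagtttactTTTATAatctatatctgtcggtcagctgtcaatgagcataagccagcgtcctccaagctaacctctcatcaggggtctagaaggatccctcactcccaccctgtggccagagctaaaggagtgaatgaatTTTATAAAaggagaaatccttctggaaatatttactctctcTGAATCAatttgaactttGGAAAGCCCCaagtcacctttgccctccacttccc
Ccl20: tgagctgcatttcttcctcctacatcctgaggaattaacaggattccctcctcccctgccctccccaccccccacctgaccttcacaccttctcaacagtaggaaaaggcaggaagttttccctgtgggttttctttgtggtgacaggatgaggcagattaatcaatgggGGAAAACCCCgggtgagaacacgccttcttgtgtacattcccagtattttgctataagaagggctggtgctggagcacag

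The motifs searched on both strands were GGG and TTTCC spaced by 2 bases for NF-kB, TGANTCA for AP-1, TTGCNNAA for C/EBP, GAAA repeated after 2 bases for interferon-response elements and TATAAA for the TATA box. A TATAAA stood 32 bases before the start of Ccl8 and 31 before that of Ccl12. Ccl9 held an NF-kB match 35 bases and an AP-1 match 53 bases before its start, and TATAAA in either orientation at 224, 94 and 92 bases, the last pair overlapping. Ccl20 held an NF-kB match 80 bases before its start. Of 32851 RefSeq promoters in windows of this length, 1.41% held the NF-kB letters, 6.75% AP-1, 9.56% C/EBP, 2.98% the interferon-response letters and 12.37% TATAAA. None of the letters was found in the windows of Ccl6 or Ccr1, and the window listed for Ccr2 lies inside its annotated gene and was not read as a promoter. These matches are descriptions of sequence that were not tested for binding.

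The libraries held 18.55 M to 20.44 M estimated counts each, and levels are given as counts per 1 M counts (CPM, scaled with TMM factors). Where a library had 0 counts of a gene, levels of up to 3 counts, or 0.147 to 0.162 CPM, are allowed by counting error alone. The corneal identity of the injured libraries was partial: Krt12, the keratin of corneal epithelium, averaged 65.5 ± 104 CPM in UCPRP, 22.6 ± 16.2 in UCS, 13.4 ± 9.15 in Vehicle and 22560 ± 9050 in Control (SD, n = 3 each), while Pax6 averaged 480 ± 41.5, 533 ± 48.7, 422 ± 36.0 and 656 ± 43.3 CPM in the same order of groups. Circadian transcripts divided the libraries. Vehicle replicates 1 and 2, UCS replicate 1 and Control replicate 3 had low Dbp (14.7 to 25.9 CPM) and high Arntl, and the other 8 had high Dbp (139 to 280 CPM), so Vehicle held a lone high-Dbp library and UCPRP none with low Dbp. Retinal, lens and muscle transcripts also varied between libraries, with summed skeletal muscle markers at 10.5 to 587 CPM in UCPRP, 48.7 to 317 in UCS, 233 to 1470 in Vehicle and 17.6 to 415 in Control.

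The effect of BAK on these genes was asked by setting Vehicle beside Control. All 8 members that passed the filter on low counts were higher in Vehicle by edgeR's quasi-likelihood test (adjusted p under 0.05 over 16124 genes), where 9.58% of all tested genes were called higher. Their log2 fold changes ran from 1.68 for Ccl12 to 3.98 for Ccr1, with a median of 2.85 against 0.00 over all genes tested. No Vehicle library was as low as the highest Control library for any of the 8, a separation that 15.2% of all tested genes showed. Ccl20, with 1 to 13 counts in the libraries of these groups, did not pass the filter on low counts and was left out of the main fit.

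Among the ligands of CCR2, Ccl2 had 8.93, 9.57 and 1.79 CPM in Vehicle replicates 1, 2 and 3, against 0.618, 1.36 and 0.777 CPM in Control replicates 1, 2 and 3. The lowest Vehicle library thus stood just above the highest Control library, while the other Vehicle libraries were several times higher. The fold change was 2.88 on the log2 scale (SE 0.69, edgeR adjusted p = 0.0147). Ccl7 had 11.3, 10.2 and 1.99 CPM in Vehicle, against 0.309, 1.25 and 0.414 CPM in Control (log2 fold change 3.59, SE 0.74, edgeR adjusted p = 0.00663). As for Ccl2, its neighbour on the chromosome, Vehicle replicate 3 lay far below the other Vehicle libraries. Ccl12 had 3.92, 4.05 and 3.42 CPM in Vehicle, against 0.875, 1.66 and 1.04 CPM in Control. It was the least changed of the tested members (log2 fold change 1.68, SE 0.27, with an edgeR adjusted p of 0.00166). It was also the most even of them within Vehicle, with a coefficient of variation of 8.8% against 63.9% for Ccl2 and 64.9% for Ccl7. In Control its coefficient of variation was 34.8%, against 17.7% for Ccl9.

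The remaining ligands signal chiefly through receptors other than CCR2. Ccl8 had 19.8, 19.7 and 6.79 CPM in Vehicle, against 1.03, 1.48 and 1.61 CPM in Control (log2 fold change 3.49, SE 0.79, edgeR adjusted p = 0.0112). Ccl6 had 86.3, 74.5 and 31.0 CPM in Vehicle, against 3.45, 9.43 and 14.3 CPM in Control (2.82, SE 0.47, adjusted p = 0.00194 by edgeR). Ccl9, the neighbour of Ccl6 and like it a rodent CCR1 ligand, had 34.7, 30.9 and 12.01 CPM in Vehicle, against 3.54, 4.64 and 5.06 CPM in Control (2.55, SE 0.40, adjusted p = 0.00138 by edgeR). For all 3 genes Vehicle replicate 3 lay far below its group and still above every Control library. Per kilobase of exon, so that genes can be set beside each other, Ccl6 was the highest member and Ccl8 followed it in all 4 groups, at 44.4 and 30.2 CPM per kb in Vehicle, against 6.29 and 2.69 CPM per kb in Control. Ccl20, the CCR6 ligand, had 1, 2 and 1 counts in Vehicle and 1, 4 and 13 counts in Control. The ratio of its total counts, 4 in Vehicle over 18 in Control, was 0.208 (95% counting interval 0.0512 to 0.631), and 13 of the 18 came from Control replicate 3. That interval leaves out the spread between pools and is not a test between the groups.

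Both receptors changed with the ligands. Ccr1 had 42.7, 43.3 and 9.70 CPM in Vehicle, against 1.96, 2.61 and 1.502 CPM in Control, the largest change among the members (log2 fold change 3.98, SE 0.59, edgeR adjusted p = 0.000935). Ccr2 had 18.4, 14.5 and 11.8 CPM in Vehicle, against 2.16, 3.47 and 2.75 CPM in Control, and had the lowest adjusted p of the members (log2 fold change 2.41, SE 0.34, edgeR adjusted p = 0.000741). Vehicle replicate 3 was the lowest Vehicle library for all 8 tested genes, but to unequal degrees. The mean of replicates 1 and 2 over replicate 3 was 5.39 for Ccl7, 5.18 for Ccl2 and 4.43 for Ccr1, then 2.91 for Ccl8, 2.73 for Ccl9 and 2.59 for Ccl6, and 1.40 for Ccr2 and 1.17 for Ccl12. Because Vehicle replicate 3 is also the high-Dbp Vehicle library, its difference from the others cannot be told apart from clock phase. Within the high-Dbp libraries (1 Vehicle, 2 Control) all 8 members were higher in Vehicle, by 0.86 to 2.44 on the log2 scale, with 3 called by edgeR where 2.98% of all genes were called higher. Within the low-Dbp libraries (2 Vehicle, 1 Control) they were higher by 1.94 to 4.84, with 3 called where 3.08% of all genes were. Ccl8 was called within neither phase (edgeR adjusted p = 0.205 in high-Dbp and 0.121 in low-Dbp libraries) and not by limma-voom (adjusted p = 0.0583), and its adjusted p ran from 7.42e-06 to 0.205 over the alternatives. Ccl2 lost its call when Vehicle replicate 2, Control replicate 1 or Control replicate 3 was left out (edgeR adjusted p up to 0.0619), by limma-voom (adjusted p = 0.0748), with clock phase as a term (edgeR adjusted p = 0.063) and within both clock phases (edgeR adjusted p = 0.693 in high-Dbp and 0.0836 in low-Dbp libraries).

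**Figure D1:**
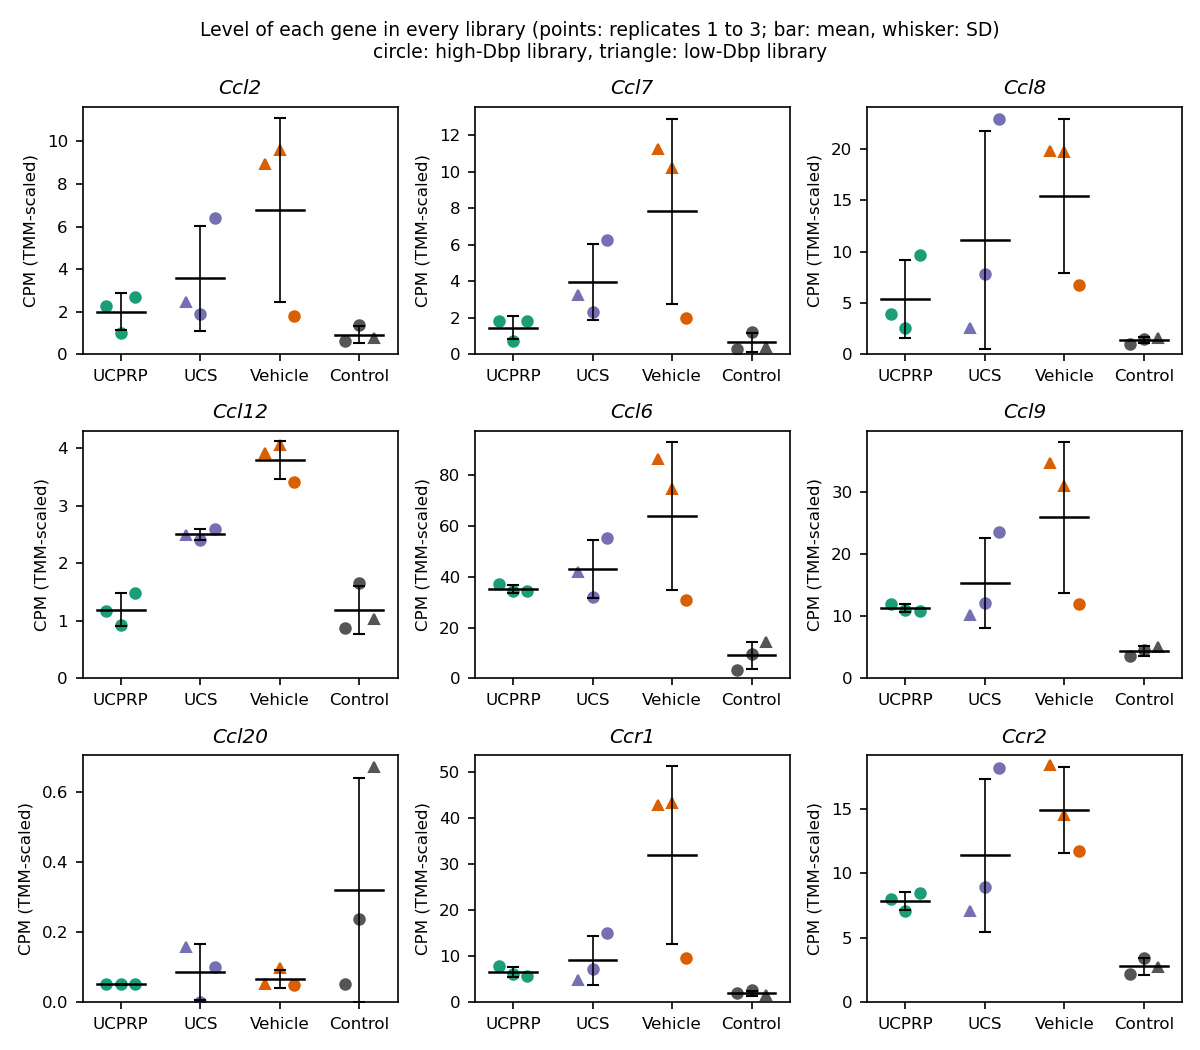
Level in CPM (y axis, linear, from 0) of each of the 9 genes in every library, by group on the x axis (UCPRP, UCS, Vehicle, Control); points are replicates 1 to 3, circles high-Dbp and triangles low-Dbp libraries, bars the mean and whiskers the SD. Ccr1 stands at 42.7 and 43.3 CPM in the low-Dbp Vehicle libraries and at 9.70 CPM in the high-Dbp one, against 1.502 to 2.61 CPM in Control, whereas Ccl12 is even within Vehicle.

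Other genes of the chemokine system were read from lists beside the members. Of 12 tested CC ligands outside the set 4 were higher in Vehicle and none lower: Ccl3 (8.60 ± 7.56 CPM in Vehicle, 0.386 ± 0.156 in Control, log2 fold change 4.48), Ccl4 (7.03 ± 5.31 and 0.349 ± 0.272 CPM, 4.28), Ccl21c (2.67) and Ccl21a (1.5). Reads of Ccl21a and Ccl21c, which are near-identical copies, may have been divided between them. Ccl3 and Ccl4 encode inflammatory chemokines, and CCL3 is among the ligands of CCR1. Both were uneven within Vehicle, at 0.904 to 16 CPM for Ccl3 and 1.44 to 12 CPM for Ccl4. Ccl11, which lies inside the Ccl2 to Ccl8 cluster and encodes the eosinophil attractant eotaxin, was not called (3.05 ± 1.27 CPM in Vehicle, 1.76 ± 0.490 CPM in Control, log2 fold change 0.79, edgeR adjusted p = 0.191). Among receptors outside the set the lymph node homing receptor Ccr7 was higher (log2 fold change 2.38). The receptors of the remaining ligands were at the limit of detection, Ccr8 at 0.118 ± 0.0318 CPM in Vehicle and 0.0395 ± 0.0685 CPM in Control, and Ccr6 at 0.155 ± 0.142 and 0.0533 ± 0.0505 CPM in the same groups.

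**Figure D2:**
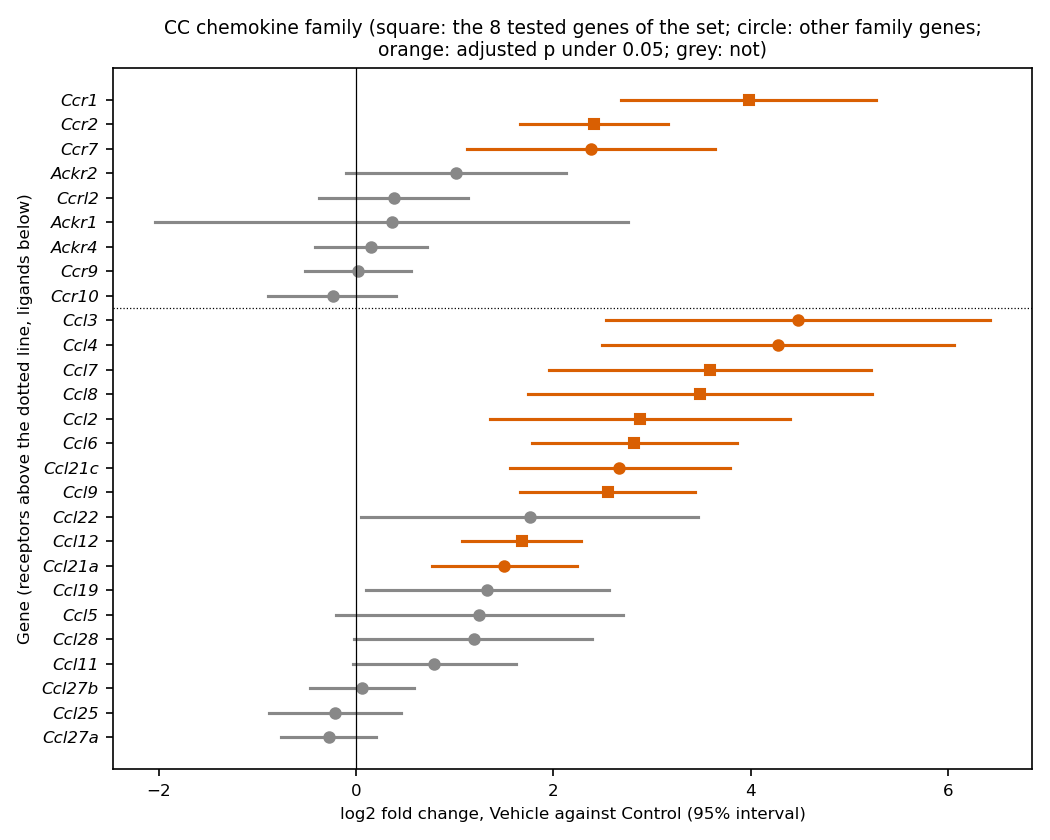
Log2 fold change of Vehicle against Control (x axis) with 95% intervals for CC ligands (below the dotted line) and receptors (above it) that are reported here; squares are the 8 tested members, circles other family genes, orange marks an adjusted p under 0.05 over all genes. All 8 squares are orange, with Ccl3 and Ccl4 beyond the highest ligand of the set and Ccr1 at the top of the receptors.

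Genes that act before and after the chemokines moved in part. In the list of monocyte growth factors and adhesion molecules 13 of 22 were higher and none lower, with Csf2rb, the shared beta chain of the GM-CSF, IL-3 and IL-5 receptors (log2 fold change 3.86), Selplg, the selectin ligand PSGL-1 (2.89), and Itgb2, the beta-2 integrin chain (2.75), at its head. In the receptor signalling list 9 of 19 were higher, led by the Src-family kinase Fgr (4.57), the phospholipase Plcb2 (2.56) and the GTPase Rac2 (2.26), while the broadly expressed Gnai2 was not called (−0.05). Among known inducers and inhibitors of chemokine transcription 6 of 24 were higher and 1 lower, and the list median was 0.42. Il1b, an interleukin that induces Ccl2 in many cells, averaged 72.6 ± 56.9 CPM in Vehicle and 1.34 ± 0.686 CPM in Control (log2 fold change 5.76, SE 1.10, edgeR adjusted p = 0.00492), followed by its receptor gene Il1r1 (1.24) and the C/EBP factor Cebpd (1.22). Vehicle libraries were uneven, at 7.56 to 113 CPM for Il1b and 10.1 to 52.3 CPM for Csf2rb. The lower gene was Fos, an AP-1 component (−0.87), and Tnf was not called (16.8 ± 6.78 CPM in Vehicle, 22.7 ± 6.12 CPM in Control). Over all tested genes the median was 0.00, and 9.58% were called higher and 6.92% lower.

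Markers of leukocytes moved in the same libraries. Of 22 monocyte and macrophage markers 18 were higher in Vehicle and none lower (median 1.73), with summed levels of 1500 to 1950 CPM in Vehicle and 596 to 1000 CPM in Control. A large part of the Control sum was Plac8, the 1 marker of the 22 with a lower mean in Vehicle (189 ± 26.7 CPM, 234 ± 98.7 in Control). Of 7 tested neutrophil markers 6 were higher (summed levels of 763 to 1400 CPM in Vehicle, 33.7 to 122 CPM in Control). Ly6g went the other way, at 0.896 ± 0.218 CPM in Vehicle and 1.47 ± 0.274 CPM in Control. Its highest Vehicle library (1.06 CPM) lay under its lowest Control library (1.2 CPM). Elane had 0 counts in both groups, and Mpo and Ngp had 0 in Control. Most of the neutrophil sum was the single gene Ltf, at 830 ± 143 CPM in Vehicle and 66.9 ± 41.2 CPM in Control. Of 11 dendritic cell markers 7 were higher (520 to 636 CPM in Vehicle, 218 to 388 CPM in Control), and of 9 T and NK cell markers none was (11.9 to 15.1 CPM in Vehicle, 7.35 to 13.6 CPM in Control). Skeletal muscle markers had higher means in all of 9 genes with none called, the 10 conjunctival markers were all higher, and 7 of 9 corneal epithelial markers were lower and 1 higher. The part of any of these in the chemokine values was not tested. In bulk tissue a change in the number of cells of a type and a change in RNA per cell cannot be told apart.

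**Figure D3:**
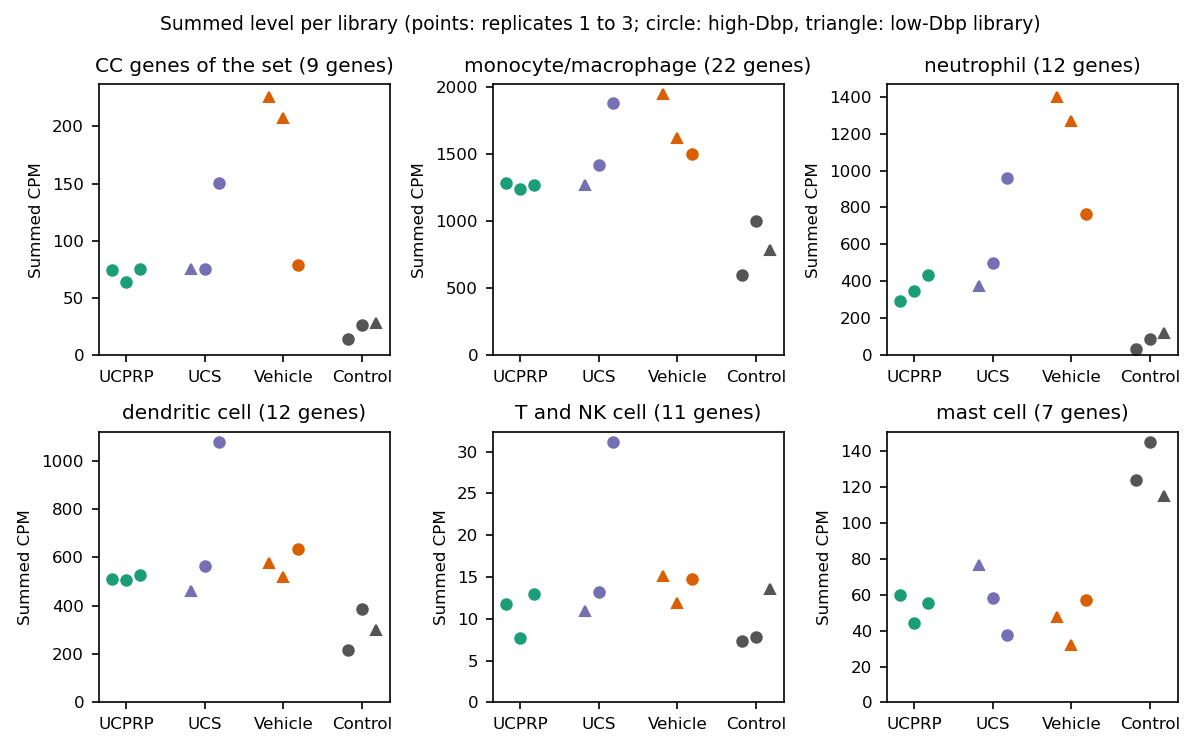
Summed CPM (y axis, linear, from 0) of the 9 genes and of 5 leukocyte marker lists in each library, by group (UCPRP, UCS, Vehicle, Control); circles are high-Dbp and triangles low-Dbp libraries. The sum of the members runs from 78.6 to 226 CPM in Vehicle and from 14.0 to 28.1 CPM in Control, and the neutrophil sum is likewise lowest in Vehicle replicate 3 and highest in UCS replicate 3 within their groups. Ltf makes up most of the neutrophil sum, with means of 830 CPM in Vehicle and 542 CPM in UCS. In the mast cell sum Kit averages 114 of 128 CPM in Control.

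Whether UCS changed the expression of these genes in injured corneas was asked by comparing UCS with Vehicle. All 8 tested members had a lower mean in UCS, with a median log2 fold change of −0.68 against −0.01 over all genes, and none passed the test. By edgeR 0 members and 0 genes in all were called (0%), 2 members and 782 of all genes had an unadjusted p under 0.05, DESeq2 called 0 members and 14 genes in all, and limma-voom called 0. Ccl12 alone had UCS libraries wholly below the Vehicle libraries, which 4.45% of all tested genes did.

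The UCS libraries were uneven. Ccr1 had 4.94, 7.28 and 15.1 CPM in UCS replicates 1, 2 and 3, the last above the lowest Vehicle library at 9.70 CPM (log2 fold change −1.81, 95% interval −2.95 to −0.66, edgeR adjusted p = 0.898). Ccl12 had 2.497, 2.41 and 2.60 CPM in UCS, the tightest UCS group of the 8 tested members, against 3.42 to 4.05 CPM in Vehicle (−0.60, interval −1.17 to −0.03, adjusted p = 1.0 by edgeR). Ccl8 had 2.55, 7.87 and 23.0 CPM in UCS, against 6.79 to 19.8 CPM in Vehicle, so that its highest library of all 12 was a UCS one (−0.47, interval −1.98 to 1.04). For Ccl2, with 2.44, 1.87 and 6.38 CPM in UCS, and Ccl7, with 3.24, 2.30 and 6.28 CPM, the intervals of −2.28 to 0.44 and −2.38 to 0.41 included 0. Ccl6 had 42.0, 32.2 and 55.3 CPM in UCS (−0.57, interval −1.52 to 0.39), and Ccl9 had 10.2, 12.1 and 23.6 CPM (−0.76, interval −1.58 to 0.07). Ccr2 had 7.05, 8.94 and 18.2 CPM in UCS, against 11.8 to 18.4 CPM in Vehicle (−0.38, interval −1.08 to 0.31). UCS replicate 3 was the highest UCS library for all 8, by 4.41 times the mean of the others for Ccl8, 2.96 times for Ccl2 and 1.06 times for Ccl12. The same library had the highest UCS sums of monocyte and macrophage markers (1880 CPM, against 1270 and 1420 CPM), neutrophil markers (960 CPM, against 377 and 499 CPM) and T and NK cell markers (31.2 CPM, against 10.9 and 13.2 CPM), and the part of these in its values was not tested. Ltf made up most of the neutrophil sum in UCS, with a mean of 542 of 612 CPM.

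The direction of this comparison differed between the clock phases. Within the low-Dbp libraries (1 UCS, 2 Vehicle) all 8 members were lower in UCS, by −0.68 to −3.13 on the log2 scale. Within the high-Dbp libraries (2 UCS, 1 Vehicle) 7 were higher in UCS, by 0.21 for Ccr1 and Ccr2 to 1.21 for Ccl2, and Ccl12 alone was lower (−0.45). In those 7 UCS replicate 3 was 1.55 to 3.57 times Vehicle replicate 3. UCS replicate 2 was little above Vehicle replicate 3 for Ccl2 (1.87 and 1.79 CPM), Ccl6, Ccl7, Ccl8 and Ccl9. It was below that library for Ccr1 (7.28 and 9.70 CPM), Ccr2 (8.94 and 11.8 CPM) and Ccl12. None was called within either phase, and the lone library of a group takes its spread from the others.

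For UCPRP the same question was asked against Vehicle. All 8 tested members had a lower mean in UCPRP (median log2 fold change −1.59, against 0.03 over all genes), and 6 had an unadjusted p under 0.05, as did 1571 of 16124 genes. By edgeR 0 members and 0 of all genes were called (0%), with adjusted p values of the members from 0.331 to 0.559. DESeq2 called 3 members lower, Ccl12, Ccr1 and Ccl7 (adjusted p = 0.000641, 0.00719 and 0.0460) among 145 genes in all, and limma-voom called 0. Without Vehicle replicate 3, edgeR called 4 members, Ccr1, Ccl7, Ccl9 and Ccl12 (adjusted p from 0.0179 to 0.0415), among 195 genes in all, of which 176 were lower in UCPRP. That fit sets high-Dbp UCPRP libraries against low-Dbp Vehicle libraries, so treatment and clock phase cannot be told apart in it, and within the high-Dbp libraries edgeR called 0 members and 0 genes. In 5 members, Ccl7, Ccl12, Ccl9, Ccr1 and Ccr2, no UCPRP library reached the lowest Vehicle library, which held for 7.13% of all tested genes.

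Ccl12 had 1.17, 0.924 and 1.49 CPM in UCPRP replicates 1, 2 and 3, against 3.42 to 4.05 CPM in Vehicle. Its mean was 1.196 ± 0.284 CPM in UCPRP and 1.191 ± 0.415 CPM in Control. It ranked 2 by p among all genes (log2 fold change −1.66 against Vehicle, 95% interval −2.26 to −1.06, unadjusted p = 7.33e-05 and adjusted p = 0.331 by edgeR). Its lower level was also seen within the high-Dbp libraries (−1.52, 3 UCPRP libraries and 1 Vehicle library). Ccl7 had 1.81, 0.719 and 1.85 CPM in UCPRP, all under the lowest Vehicle library at 1.99 CPM (−2.42, interval −3.91 to −0.92, edgeR adjusted p = 0.347). Ccl2 had 2.29, 1.03 and 2.67 CPM in UCPRP, which overlapped the lowest Vehicle library (−1.76, interval −3.17 to −0.34). Ccl8 had 3.95, 2.57 and 9.67 CPM in UCPRP (−1.52, interval −3.07 to 0.04), also overlapping Vehicle.

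The CCR1 ligands were even across UCPRP. Ccl6 had 37.1, 34.6 and 34.4 CPM in UCPRP, above the lowest Vehicle library at 31.0 CPM (−0.86, interval −1.82 to 0.11), and Ccl9 had 11.99, 10.96 and 10.8 CPM in UCPRP, against 12.01 CPM in the lowest Vehicle library (−1.2, interval −2.04 to −0.37). Ccr1 had 7.90, 6.11 and 5.71 CPM in UCPRP, against 9.70 to 43.3 CPM in Vehicle (−2.28, interval −3.45 to −1.11, edgeR adjusted p = 0.331). Ccr2 had 7.99, 7.07 and 8.51 CPM in UCPRP, against 11.8 to 18.4 CPM in Vehicle (−0.92, interval −1.62 to −0.22). Ccl20 had 1 count in each UCPRP library and 5 in all of UCS, at the limit of detection. Within the high-Dbp libraries 6 members were lower in UCPRP and 2, Ccl2 (0.15) and Ccl6 (0.18), were higher, and none was called. Neutrophil markers had summed levels of 294 to 436 CPM in UCPRP, against 763 to 1400 CPM in Vehicle, and monocyte and macrophage markers of 1240 to 1290 CPM, against 1500 to 1950 CPM. By edgeR 0 of 7 tested neutrophil markers and 0 of 22 monocyte and macrophage markers were called in this comparison, where 0 of all genes were. The part of these markers in the chemokine values was not tested. Most of the neutrophil sum was again Ltf, at 300 ± 92.8 CPM in UCPRP and 830 ± 143 CPM in Vehicle.

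**Figure D4:**
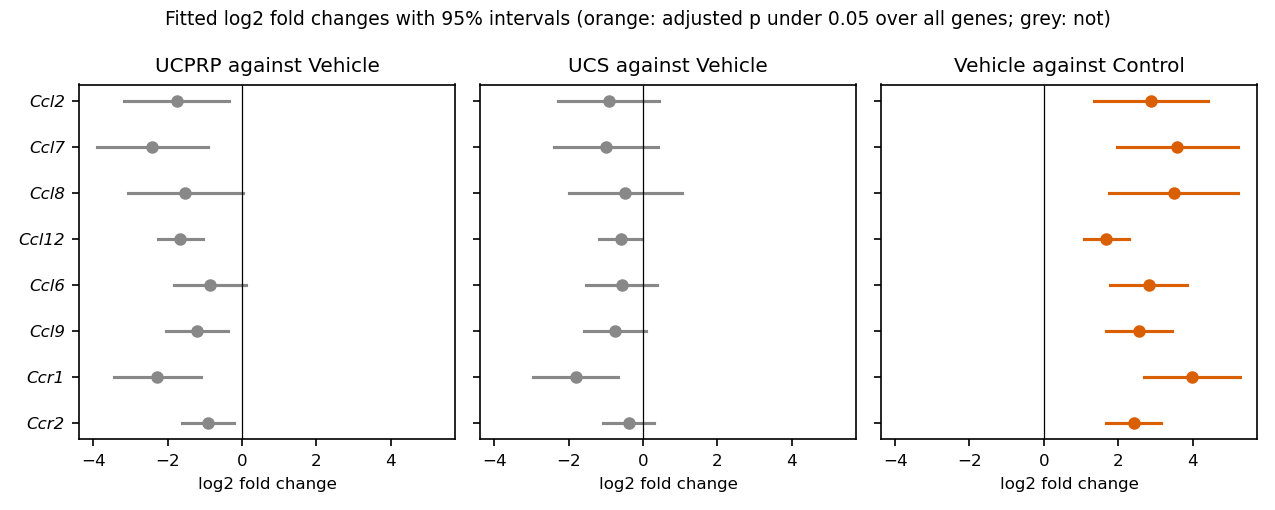
Log2 fold changes (x axis) with 95% intervals of the 8 tested members in 3 comparisons that share the Vehicle libraries, UCPRP against Vehicle, UCS against Vehicle and Vehicle against Control; orange marks an adjusted p under 0.05 over all genes. All 8 are orange and right of 0 for Vehicle against Control, and all 8 are grey and left of 0 against Vehicle, from −2.42 to −0.86 in UCPRP and from −1.81 to −0.38 in UCS.

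UCPRP and UCS were also compared with each other, at the same dose and schedule. All 8 members had a lower mean in UCPRP than in UCS (median log2 fold change −0.69, against 0.02 over all genes), and edgeR, DESeq2 and limma-voom each called 0 members and 0 genes in all (0%), with 1 member and 393 of all genes at an unadjusted p under 0.05. That member was Ccl12, at 0.924 to 1.49 CPM in UCPRP and 2.41 to 2.60 CPM in UCS (log2 fold change −1.06, 95% interval −1.66 to −0.46, edgeR adjusted p = 0.985). Ccl12 and Ccl7 had no overlap between the groups, as had 5.75% of all genes in this direction. Intervals of the other members ran down to −2.92 for Ccl7 and −2.59 for Ccl8 and up to 0.67 for Ccl6 and Ccr1, so differences of that size could not be told from none. Without UCS replicate 3 the values of Ccr1, Ccl8 and Ccl9 were 0.10, 0.05 and 0.01.

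Taking UCS and UCPRP as 1 treated set against Vehicle gave 0 members called by edgeR and 0 genes in all (0%), with 6 members and 1390 genes at an unadjusted p under 0.05. Ccr1 (−2.04, 95% interval −2.97 to −1.12) and Ccl12 (−1.13, interval −1.62 to −0.65) had the lowest adjusted p, 0.207 each, and the median over the members was −1.06, against 0.01 over all genes. DESeq2 called 2 members among 157 genes in all, and limma-voom called 0 members and 0 genes.

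Against uninjured corneas the treated groups gave different numbers of calls, which is not a test of UCPRP against UCS. The direct comparison of those groups above called 0 members. In UCS against Control 7 of 8 members were higher by edgeR, all except Ccl2 (edgeR adjusted p = 0.101), where 6.4% of all genes were called higher. All 8 members had UCS libraries wholly above Control, as had 14.9% of all genes in this direction, and the median log2 fold change was 2.10. Ccl8 (3.02), Ccl7 (2.60) and Ccl6 (2.25) had the largest values, and Ccr2 the lowest adjusted p (2.03, SE 0.34, edgeR adjusted p = 0.00285). The count was between 2 and 5 when any single library of these groups was left out, and within the low-Dbp libraries it was 0, where 27 genes in all were called. In UCPRP against Control 2 members were higher, Ccr2 (1.49, SE 0.34, edgeR adjusted p = 0.0167) and Ccl6 (1.96, SE 0.46, edgeR adjusted p = 0.0203), where 5.3% of all genes were called higher. Ccl6, Ccl8, Ccl9, Ccr1 and Ccr2 had UCPRP libraries wholly above Control, as had 14.5% of all genes, while Ccl2 (1.13), Ccl7 (1.17) and Ccl12 (0.01) overlapped it. DESeq2 called 5 members in this comparison among 2244 genes in all, and without UCPRP replicate 3 edgeR called 0 members among 998 genes.

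Across the 4 groups the means of the 8 tested members had 1 order, from Vehicle through UCS and UCPRP to Control. The share of all genes with that order was not counted. Within the high-Dbp libraries (2 UCS, 1 Vehicle) 7 of the 8 were higher in UCS than in Vehicle. Neighbours in that order were mostly not separated: Vehicle and UCS libraries overlapped in all but Ccl12, UCS and UCPRP in all but Ccl7 and Ccl12, and UCPRP and Control in Ccl2, Ccl7 and Ccl12. The summed level of the 9 genes was 64.0 to 75.1 CPM in UCPRP, 75.0 to 150 CPM in UCS, 78.6 to 226 CPM in Vehicle and 14.0 to 28.1 CPM in Control. Ccl20 alone had its highest mean in Control.

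**Figure D5:**
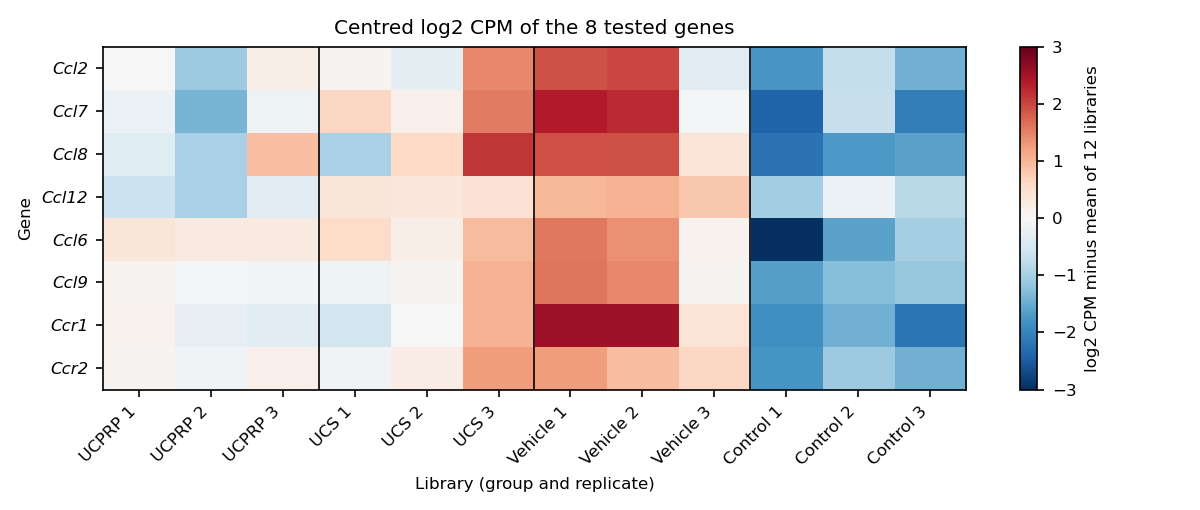
Log2 CPM of the 8 tested members (rows) in the 12 libraries (columns, grouped as UCPRP, UCS, Vehicle and Control), each minus the gene's mean over all libraries; red is above and blue below that mean. Vehicle replicates 1 and 2 and UCS replicate 3 are the reddest columns, the Control columns are blue throughout, and Ccl12 is similar in the 3 Vehicle columns.

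The profile of each member over the 12 libraries was set beside those of 12890 other genes that averaged at least 5 CPM, by the root mean square difference of centred log2 CPM, as a description. Ccl9 was the member with the closest match, Csf2rb2 at 0.13, a gene of the same receptor family as Csf2rb, followed by the leukocyte actin-bundling gene Lcp1 (0.17) and Fxyd5 (0.18). For Ccr2 the 3 nearest were the Fc receptor genes Fcgr3 and Fcer1g and the chemokine gene Pf4, each at 0.17. Ccr1 was nearest to Srgn, the proteoglycan of leukocyte granules (0.23), with Cd300lf and Csf2rb after it. Ccl6 was nearest to Wfdc17 (0.31), Tnfaip2 (0.32) and 0610040J01Rik (0.32). Ccl2 was nearest to the complement gene C3 (0.38), Serpina3g (0.39) and Socs3 (0.41), Ccl8 to Cytip (0.45), Lcn2 (0.50) and Serpina3g (0.50), and Ccl7 to Serpina3g (0.60), Cytip (0.61) and Cd300lf (0.61). Ccl12 was nearest to Evi2a (0.38), Dock2 (0.39) and Ifi207 (0.39). Median differences over all candidate genes were 0.77 for Ccl12 and 0.98 to 1.5 for the others. Among the members themselves Ccl9 and Ccr2 were the closest pair (0.28), Ccl2 and Ccl7 came next (0.40), and Ccl12 was 0.60 from its nearest member, Ccr2.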

How the data were processed

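Per the labels' protocols, whole mouse corneas gave RNA by the Qiagen RNeasy kit, from which TruSeq Stranded Total RNA libraries were made. HISAT and the build GRCm38 are named in the submitters' processing notes. The sources used here do not give the counting tool, its annotation or whether strand was used. The authors deposited estimated counts per gene (read counts, per the file headers) with 2 decimals, of which 64.9% were whole. Reads were thus divided between features, and among the members only Ccl9 and Ccr2 had fractional values.

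Estimated counts were rounded, filtered with filterByExpr (minimum count 10), which left 16124 of 19702 genes, and scaled with TMM (factors from 0.825 to 1.067). The test was glmQLFTest of edgeR 4.0.16 (R 4.3.3; robust), with 1 term per group over 12 libraries and Benjamini-Hochberg adjustment over all genes tested, called at an adjusted p under 0.05. SE values were implied by the test, as log2 fold change size over the square root of F, and intervals are 95%. Libraries of a group correlated at 0.960 to 0.986 (log2 CPM) and differed beyond counting error (chi-square per degree of freedom 17.9 to 85.9). Replicates are pools, so p-values measure the spread between pools. The common biological coefficient of variation was 0.227.

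In simulated Vehicle against Control counts over 16124 genes, 52 of 100 genes changed by 1 on the log2 scale and 99 of 100 changed by 2 were recovered, with 6 false calls. Every simulated gene had the same biological coefficient of variation, 0.227, with no clock or tissue differences between libraries. In Vehicle the members' own coefficients of variation ran from 8.8% for Ccl12 to 64.9% for Ccl7, so these recovery rates need not hold for them. Alternatives were DESeq2 1.42.0, limma-voom (limma 3.58.1), other scaling, filters and covariates, and each library left out. Within-clock-phase values were added after seeing the data. The members and lists were chosen with earlier results of these data known. All 9 members are named in every comparison. Of each pathway list up to 3 called genes with the largest change in Vehicle against Control are named by rule; Ccl21a, Ccl11, Ccr6, Ccr8, Gnai2, Fos, Tnf, Krt12 and Pax6 were named after their values were seen. Promoters and loci are from RefSeq (GRCm38.p6), and exon lengths from GENCODE M21. A result of 1 listed gene is not reported here.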

Additional observations from a re-analysis of the deposited data

How the results depend on the processing

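No member of UCS against Vehicle or UCPRP against UCS was called under any alternative run, and all 8 calls of Vehicle against Control kept their direction. The count in Vehicle against Control was 7 to 8 with 1 library left out and 3 within either clock phase. In UCPRP against Vehicle 0 were called by edgeR, 3 by DESeq2, and 0 to 4 with 1 library left out (4 without Vehicle replicate 3). For the treated groups pooled against Vehicle these counts were 0, 2 by DESeq2, and 0 to 3 (3 without Vehicle replicate 3, among 261 genes in all). In UCS against Control 7 were called, where 6.4% of all genes were called higher. DESeq2 called 8 (6.84% of all genes higher) and limma-voom 3 (5.58%). With the replicate block 3 were called (5.47%) and with the retina sum as a covariate 4 (8.24%). With 1 library left out 2 to 5 were called, where 4.02% to 5.63% of all genes were called higher. In UCPRP against Control 2 were called, where 5.3% of all genes were called higher. DESeq2 called 5 (5.7% of all genes higher) and limma-voom 1 (4.56%). With only the groups compared 4 were called (4.14%) and within the high-Dbp libraries 4 (3.71%). With 1 library left out 0 to 1 were called, where 3.15% to 3.97% of all genes were called higher. The cause of these differences was not tested.

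Replicate numbers showed no consistent pairing of the samples. Correlations of same-numbered deviations ran from −0.58 to 0.49, 7 of 18 pairs were over 0.1, and 4 of 12 libraries were closest to their own number. The labels do not say what a number marks, and with groups of 3 this check cannot exclude a shared batch or day. With the replicate block the call count moved by over 1.5 times in UCS against Control, to 3, and in no other comparison.

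Log2 fold changes changed sign in 17 of 880 member values under the alternatives, and the cause was not tested. In UCS against Vehicle within the high-Dbp libraries these were Ccl2 1.21, Ccl8 1.19, Ccl7 1.11, Ccl9 0.57, Ccl6 0.50, Ccr1 0.21 and Ccr2 0.21, and Ccl8 ran from −1.56 to 0.00 with 1 library left out (0.00 without UCS replicate 1). In UCPRP against Vehicle within the high-Dbp libraries they were Ccl6 0.18 and Ccl2 0.15. In UCPRP against UCS with 1 library left out Ccr1 ran from −0.77 to 0.10, Ccl8 from −1.77 to 0.05 and Ccl9 from −0.67 to 0.01, each highest without UCS replicate 3. In UCPRP against Control, Ccl12 ran from −0.18 to 0.28 with 1 library left out, below 0 without UCPRP replicate 3, Control replicate 1 or Control replicate 3, and was −0.08 within the high-Dbp libraries.

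In Vehicle against Control Ccl2 lost its call by limma-voom (adjusted p = 0.0748) and Ccl8 likewise (0.0583). Groups of 3 pools limit the precision. Ccl20 did not pass the filter of the main fit, and no test of it is given.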
